A study of Mus musculus with 8 samples.

Results

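The ATF4 amino acid response is described here through 38 mouse genes: 9 regulators and stress genes, 10 enzymes of amino acid and one-carbon synthesis, 8 amino acid transporters and 11 cytosolic tRNA synthetases. The list was selected on known function and with the differences between S89G-DMP1 and wild type (WT) cells already in view, in both cell types. The members' differences are therefore a description and support nothing by themselves. All 38 were found among the 47729 genes of the neural stem cell (NSC) count table and the 40562 genes of the astrocyte count table. In NSCs, 36 of the 38 passed the filter on low counts and were among the 11194 genes tested, while Cebpb and Nupr1 did not pass. In astrocytes, all 38 were among the 15680 genes that reached 10 counts in at least 1 of the libraries.

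RNA sequencing covered 8 libraries from C57BL/6 mice whose labels give an age of 10 weeks. NSCs were grown as neurospheres from the sub-ventricular zone in serum-free DMEM/F12 with N2, with 3 libraries from WT and 3 from S89G-DMP1 mice. Astrocytes were grown from cortex in DMEM with 10% serum, with 1 library of each genotype, and the methods give 3 months as the age for these cultures. S89G-DMP1 mice carry a germline point mutation, in every cell, at the glycosylation site of dentin matrix protein 1 (DMP1). The line was made in C57BL/6J embryonic stem cells, an FLP line served to excise the Neo marker, and the mutants were bred to homozygosity. Neither the labels nor the methods say whether the 3 NSC libraries of a genotype came from separate mice or cultures, so the p-values below measure only the spread between these libraries, which may be technical.

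ATF4 is a transcription factor whose messenger RNA is translated more when a stress kinase phosphorylates the initiation factor eIF2α, for example when uncharged tRNAs accumulate in amino acid shortage. It binds C/EBP-ATF response elements, usually as a dimer with a C/EBP protein, and switches on genes that make amino acids, import them and load them onto tRNAs. In astrocytes and neural progenitors the same genes supply serine and glycine for one-carbon metabolism and cystine for glutathione.

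The count totals were 2354615 to 2588130 per NSC library, 14008670 in the WT astrocyte library and 13016924 in the S89G-DMP1 astrocyte library. Dmp1 itself had 18, 21 and 16 counts in the WT NSC libraries and 6, 3 and 5 in the S89G-DMP1 NSC libraries (log2 fold change -1.90 ± 0.38, SE, adjusted p = 0.00013, edgeR quasi-likelihood test with Benjamini-Hochberg adjustment), and 2 and 119 counts in the WT and S89G-DMP1 astrocyte libraries. The mutated base cannot be read from count tables. The NSC libraries expressed the stem cell markers Sox2 and Nes, at 321 ± 5.40 and 2097 ± 97.4 CPM (counts scaled to a common library size; SD, n = 3) in WT. The summed level of 9 astrocyte markers was 1699 to 1747 CPM in the WT and 2213 to 2249 CPM in the S89G-DMP1 NSC libraries. The WT astrocyte library went against its label: the same 9 markers summed to 160 CPM, with Aqp4 and Slc1a3 at 0.632 CPM each and Gja1 as the most abundant at 92.0 CPM, against 1169 CPM in the S89G-DMP1 library, where Aqp4 was at 281 CPM and Slc1a3 at 269 CPM. Of these 9, the S89G-DMP1 library held 7 at 2-fold or more above WT and 1 at 2-fold or more below it. The 8 fibroblast markers summed to 7678 CPM in that WT library and 2204 CPM in the S89G-DMP1 library, led by Tnxb (2508 and 5.97 CPM) and Col1a1 (2158 and 1562 CPM), and 6 of the 8 differed downward by 2-fold or more. The S89G-DMP1 library was mixed as well: 6 mural markers summed to 2669 CPM (1919 in WT) and 6 microglia markers to 616 CPM (347 in WT). Its astrocyte markers, at 1169 CPM, summed to less than its fibroblast or mural markers. Xist had 12172 and 74 counts and the Y-linked Ddx3y 0 and 1277 counts in the WT and S89G-DMP1 astrocyte libraries (both chosen after their values were seen), so the libraries also differed in the sex of their cells, whereas all 6 NSC libraries had reads of both genes. Genotype, cell makeup and sex cannot be told apart in the astrocyte comparison. In bulk libraries, fewer cells of a type and less RNA per cell cannot be told apart either.

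The letters of the C/EBP-ATF core, TGATGNAA or its reverse complement TTNCATCA, were searched on both strands in the RefSeq promoter windows of build GRCm38.p6, which run from 250 bases before to 50 after each start. Windows were present for 31 members. Of these, 12 (38.7%) held the core, against 1219 of 27025 genes with a window (4.51%). With the window shortened to 150 bases before the start the shares were 35.5% and 3.15%. The core was present in 5 of 7 synthetases (Gars, Yars, Iars, Tars and Aars), 3 of 9 regulators and stress genes (Trib3, Chac1 and Nupr1), 2 of 9 synthesis enzymes (Asns and Pycr1) and 2 of 6 transporters (Slc7a11 and Slc1a4). No window was given for Cth, Slc7a5, Slc1a5, Nars, Wars, Lars and Cars. A match of letters is a description of sequence and not evidence of binding. The members were selected on known function in the ATF4 response, so a share above that of all genes may repeat the selection. Atf4, Phgdh, Shmt2, Mthfd2, Slc7a1, Slc6a9 and Eprs were called higher in S89G-DMP1 NSCs and held no core in their windows. Trib3, Pycr1, Slc7a11, Slc1a4, Yars, Tars and Aars held the core and were not called there. The windows of 30 bases below are shown because they belong to 4 members called higher in S89G-DMP1 NSCs (Chac1, Asns, Gars and Iars) and to the members with the largest decreases in the S89G-DMP1 astrocyte library (Slc7a11, which held the core at 2 places, and Nupr1). Each is written 5′ to 3′ on the strand of its gene, with the core in capitals, and their positions are chr2:119351038-119351067 (+) for Chac1, chr6:7693214-7693243 (-) for Asns, chr6:55037960-55037989 (+) for Gars, chr13:49682126-49682155 (+) for Iars, chr3:50443661-50443690 (-) and chr3:50443642-50443671 (-) for Slc7a11, and chr7:126625562-126625591 (-) for Nupr1.
Chac1: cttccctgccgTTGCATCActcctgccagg
Asns: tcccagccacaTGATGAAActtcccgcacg
Gars: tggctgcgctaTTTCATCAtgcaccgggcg
Iars: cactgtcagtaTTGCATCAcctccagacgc
Slc7a11, upstream copy: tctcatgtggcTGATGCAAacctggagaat
Slc7a11, downstream copy: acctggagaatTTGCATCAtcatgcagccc
Nupr1: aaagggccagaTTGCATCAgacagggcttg

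In S89G-DMP1 NSCs most members were slightly higher than in WT. A gene was called where its adjusted p was under 0.05 in the edgeR quasi-likelihood fit over all 11194 genes. Of the 36 members tested, 15 were called higher and 0 lower, and the other 21 were not called. Over all genes 7.08% were called higher and 8.76% lower. The log2 fold change was above 0 for 34 of the 36, against 50.6% of all genes, and its median was 0.20, against 0.00 over all genes. For 25 members every S89G-DMP1 library lay above every WT library and for 0 every one lay below, while 14.8% and 16.0% of all genes did so. Since the list was proposed from this comparison, these counts repeat the selection. DESeq2 called 11 of the members higher and 0 lower (2.73% and 3.68% of the 11460 genes it adjusted). It did not call Chac1, Slc7a5, Slc1a5 and Cars. On the deposited TPM values limma called 1 member, Slc6a9, and the sign of 5 members turned, Slc7a5 among them. Together the 38 members took up 5180, 5190 and 5140 CPM in the WT libraries and 5939, 5943 and 5945 CPM in the S89G-DMP1 libraries, so the groups did not overlap and each varied little within itself. The summed astrocyte markers were also higher in these S89G-DMP1 libraries (above), and their part in the members' differences was not tested.

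**Figure D1:**
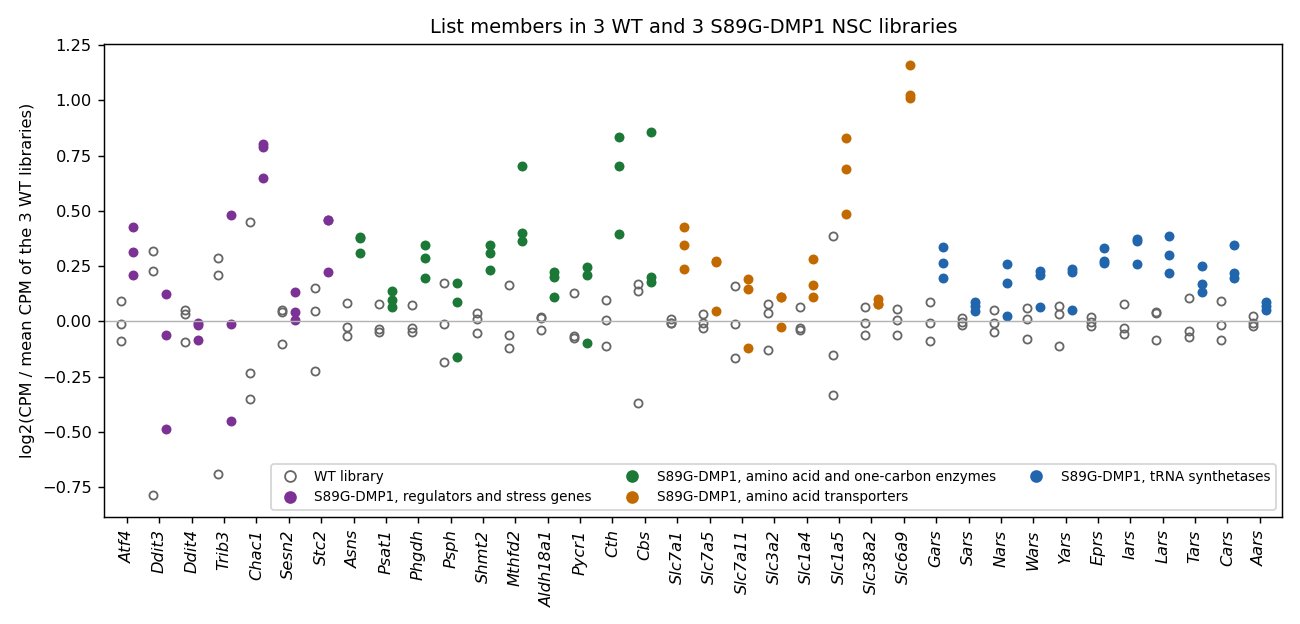
Log2 of each library's level over the WT mean (vertical axis) for the 36 members tested in NSCs (horizontal axis), with WT and S89G-DMP1 libraries as separate points. Slc6a9 lies farthest above the WT libraries, at a log2 fold change of 1.07, while the points of Ddit3 and Trib3 overlap between genotypes.

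Among the regulators and stress genes, 2 of 7 tested were called higher in S89G-DMP1 NSCs, with a group median of 0.08. Atf4, the transcription factor of the pathway, was at 200, 215 and 190 CPM in WT and 233, 251 and 271 CPM in S89G-DMP1. The 3 S89G-DMP1 libraries lay above all WT libraries, and Atf4 rose by 24.9% (log2 fold change 0.32 ± 0.07, SE). Chac1, which degrades glutathione, was at 5.48, 5.05 and 8.79 CPM in WT and 10.1, 11.1 and 11.2 CPM in S89G-DMP1. Its groups did not overlap either, and it rose by 67.5% (0.74 ± 0.26). That call rested on few counts and was lost in 5 of the 6 fits that left out a single library, being kept only without WT library 3 (log2 fold change 0.59 to 1.04).

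Of the other regulators and stress genes, 5 were tested and not called in NSCs, and Cebpb and Nupr1 were not tested. Ddit3, the pro-apoptotic factor CHOP, was at 17.3, 8.55 and 18.4 CPM in WT and 10.5, 14.1 and 16.0 CPM in S89G-DMP1. These values overlapped, with a log2 fold change of -0.11 ± 0.22. The log2 fold changes were 0.08 ± 0.29 for Trib3, a pseudokinase that restrains ATF4, -0.04 ± 0.08 for Ddit4, an inhibitor of mTORC1, and 0.06 ± 0.07 for Sesn2, a leucine sensor upstream of mTORC1. Stc2, a secreted glycoprotein, was at 20.2, 21.8 and 16.8 CPM in WT and 27.0, 27.0 and 22.9 CPM in S89G-DMP1, without overlap, but did not pass the threshold (0.38 ± 0.16). Cebpb, a dimer partner of ATF4, had 3, 4 and 8 counts in WT and 2, 2 and 3 in S89G-DMP1. Nupr1, a small chromatin protein induced by stress, had 3, 6 and 4 counts in WT and 8, 4 and 10 in S89G-DMP1. Both counts were too low for the test. Ddit3 lies opposite Mars1, which itself rose (0.29 ± 0.07), and the sources used here do not say whether reads were assigned by strand.

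Of the 10 synthesis enzymes, 4 were called higher and all 10 had a log2 fold change above 0, with a median of 0.29. Mthfd2, the mitochondrial one-carbon enzyme, was at 55.2, 57.5 and 67.1 CPM in WT and 79.2, 77.0 and 97.5 CPM in S89G-DMP1, and rose by 41.3% (log2 fold change 0.50 ± 0.10). Asns, which makes asparagine, was at 94.4, 85.1 and 87.5 CPM in WT and 116, 116 and 110 CPM in S89G-DMP1, and rose by 28.1% (0.36 ± 0.08). For both genes the lowest S89G-DMP1 library was above the highest WT library.

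The calls covered the first and last steps from glycolysis to glycine and not the steps between. Phgdh, which catalyses the first step from glycolysis to serine, was at 193, 210 and 196 CPM in WT and 229, 244 and 254 CPM in S89G-DMP1 and rose by 21.1% (0.28 ± 0.06). Shmt2, which turns serine into glycine in mitochondria, was at 190, 182 and 194 CPM in WT and 240, 234 and 221 CPM in S89G-DMP1 and rose by 22.8% (0.30 ± 0.06). The enzymes between them were not called: Psat1 had a log2 fold change of 0.10 ± 0.05 and Psph 0.04 ± 0.13, each with overlapping libraries. Psph shares its locus with Cct6a on the other strand, which had 5122 counts over the NSC libraries against 498 for Psph. The other enzymes stayed short of the threshold. These were Aldh18a1 (0.18 ± 0.07) and Pycr1 (0.13 ± 0.19), which make proline, and Cbs (0.45 ± 0.20) and Cth (0.64 ± 0.36), which turn homocysteine into cysteine. Libraries did not overlap for Aldh18a1, Cbs and Cth, and overlapped for Pycr1.

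Among the 8 transporters, 4 were called higher and all 8 had a log2 fold change above 0 (median 0.20). Slc6a9, the glycine transporter GLYT1, showed the largest difference of any member. It was at 21.9, 20.2 and 21.2 CPM in WT and 43.0, 47.1 and 42.5 CPM in S89G-DMP1, and rose by 109% (log2 fold change 1.07 ± 0.14), between 1.02 and 1.09 with any single library left out. The deposited TPM gave a larger difference, with a ratio of means of 3.26. Slc6a9 overlaps B4galt2 on the other strand, which had 1424 counts over the NSC libraries against 475 for Slc6a9 and a log2 fold change of 0.27 ± 0.09. Slc1a5, the glutamine and neutral amino acid transporter ASCT2, was at 19.8, 17.5 and 28.8 CPM in WT and 39.2, 35.5 and 30.9 CPM in S89G-DMP1 and rose by 59.4% (0.67 ± 0.15). The highest WT and lowest S89G-DMP1 libraries of Slc1a5 lay close together, at 28.8 and 30.9 CPM.

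Messenger RNAs of transporters for cationic and large neutral amino acids were also called. Slc7a1, the arginine and lysine transporter CAT1, was at 222, 222 and 225 CPM in WT and 300, 283 and 263 CPM in S89G-DMP1 (0.34 ± 0.06). Slc7a5, the leucine transporter LAT1, was at 351, 345 and 360 CPM in WT and 425, 425 and 363 CPM in S89G-DMP1 (0.20 ± 0.06). The third S89G-DMP1 library of Slc7a5 was barely above WT, and its call was lost without S89G-DMP1 library 1 (0.16), S89G-DMP1 library 2 (0.16) or WT library 2 (0.18). Slc3a2, the heavy chain that carries LAT1 and the cystine transporter to the membrane, had a log2 fold change of 0.06 ± 0.07, and Slc7a11, the cystine transporter xCT, 0.08 ± 0.14. Slc1a4, which carries alanine and serine, had 0.19 ± 0.08, and Slc38a2, the transporter SNAT2, 0.09 ± 0.06. None of these 4 was called.

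All 11 synthetases had a log2 fold change above 0 in NSCs, with a median of 0.19, and 5 were called higher. Summed, they took 2180, 2161 and 2123 CPM in WT and 2470, 2458 and 2488 CPM in S89G-DMP1, a mean of 2154 ± 29.2 against 2472 ± 15.4 (SD, n = 3). Iars, which loads isoleucine, was at 190, 173 and 176 CPM in WT and 233, 215 and 231 CPM in S89G-DMP1 (0.34 ± 0.07). Lars, for leucine, was at 153, 152 and 140 CPM in WT and 183, 172 and 194 CPM in S89G-DMP1 (0.31 ± 0.07). For both genes every S89G-DMP1 library was above every WT library. Eprs, the fused enzyme for glutamate and proline, was at 319, 322 and 327 CPM in WT and 391, 407 and 388 CPM in S89G-DMP1 (0.29 ± 0.06). Gars, for glycine, was at 209, 195 and 185 CPM in WT and 248, 225 and 236 CPM in S89G-DMP1 (0.27 ± 0.06). Cars, for cysteine, was at 86.4, 80.0 and 76.3 CPM in WT and 92.7, 94.2 and 103 CPM in S89G-DMP1 (0.26 ± 0.09). Groups did not overlap for these 3 genes either, but the Cars call was lost without S89G-DMP1 library 2 (0.27) or 3 (0.21), or without WT library 2 (0.25) or 3 (0.22).

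The other 6 synthetases were not called. They were Tars for threonine (0.19 ± 0.08), Wars for tryptophan (0.17 ± 0.07), Yars for tyrosine (0.17 ± 0.07), Nars for asparagine (0.16 ± 0.06), Sars for serine (0.07 ± 0.06) and Aars for alanine (0.07 ± 0.05). Libraries overlapped for Nars and Yars and did not for the other 4. Nars passed the threshold without S89G-DMP1 library 1, Tars without WT library 1 and Yars without S89G-DMP1 library 3. Over the whole list, 6 members had an adjusted p between 0.05 and 0.1.

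In astrocytes, with 1 library of each genotype, no test was possible, and the intervals given below cover counting error only. Most members were lower in the S89G-DMP1 astrocyte library. The log2 ratio, scaled by TMM, was below 0 for 29 of 38 members, against 49.5% of all genes, with a median of -0.63 against 0.01 over all genes. At least a 2-fold difference was taken as the call: 14 members were lower and 1 was higher, while 12.8% of all genes were lower and 17.3% higher. The scaling mattered. By library size alone the log2 ratios of members were about 0.29 higher, 28 members stayed below 0 (33.6% of all genes), 7 were at least 2-fold lower (9.66%) and 3 higher (22.2%), and the median was -0.34 against 0.30 over all genes. The 38 members summed to 3857 CPM in the WT and 2501 CPM in the S89G-DMP1 library. In the same pair the summed markers were at 7678 and 2204 CPM for fibroblasts, 776 and 2207 CPM for neural stem cells and 1919 and 2669 CPM for mural cells. The part of these cells in the members' differences was not tested.

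**Figure D2:**
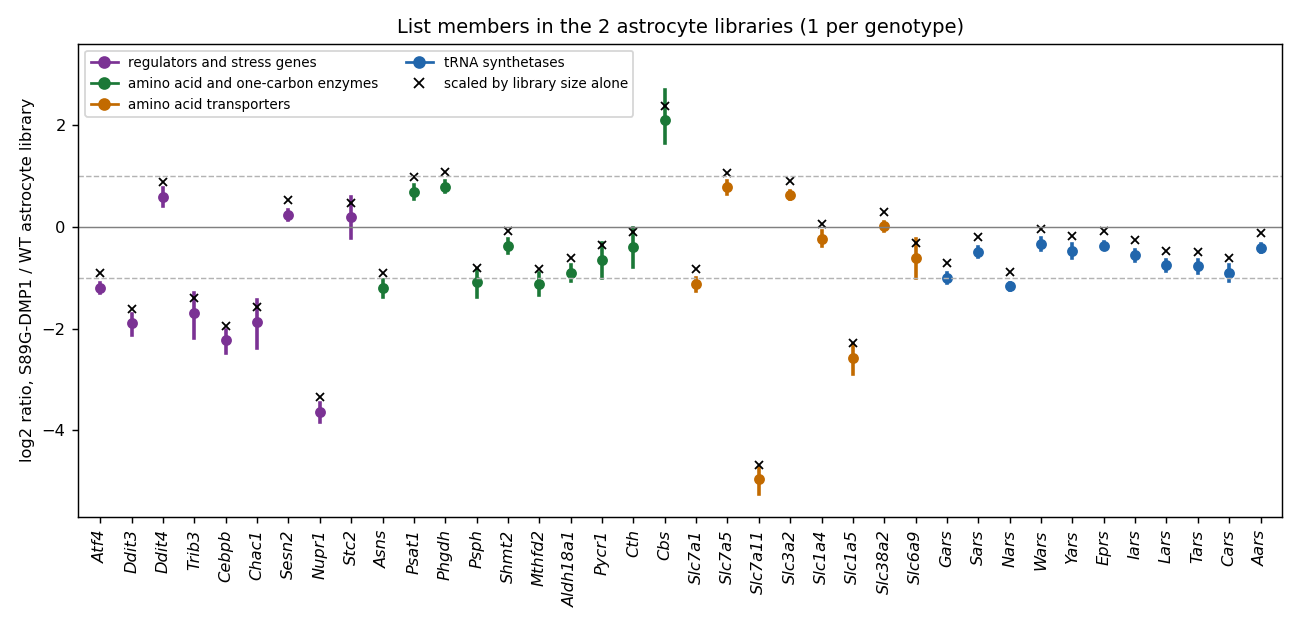
Log2 ratio of the S89G-DMP1 over the WT astrocyte library (vertical axis) for all 38 members, coloured by role, with bars for the 95% counting interval, crosses for scaling by library size alone and dashed lines at 2-fold. Slc7a11 lies lowest at -4.97 and Cbs highest at 2.11, and all 11 synthetases lie below 0.

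The regulators and stress genes held 6 of the 14 members called lower in astrocytes, with a group median of -1.69. Nupr1 had 3089 counts in the WT and 280 in the S89G-DMP1 library, or 244 and 19.4 CPM, and was 12.5-fold lower (95% counting interval 11.1 to 14.2). Cebpb had 809 and 194 counts and was 4.74-fold lower (4.05 to 5.58), and Ddit3 had 835 and 253 counts and was 3.75-fold lower (3.26 to 4.34). Chac1 (168 and 51 counts, 3.75-fold lower, interval 2.72 to 5.23) and Trib3 (169 and 58 counts, 3.31-fold lower, 2.45 to 4.55) followed. Atf4 itself had 2606 and 1295 counts, or 206 and 89.9 CPM, and was 2.29-fold lower (2.14 to 2.45), which became less than 2-fold when scaled by library size alone. The log2 ratios of the remaining 3 were above 0 and short of 2-fold, at 0.59 for Ddit4, 0.24 for Sesn2 and 0.19 for Stc2. Genes of this group therefore differed in both size and direction within the same pair of libraries.

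The synthesis enzymes were split in astrocytes, with 7 of 10 below 0 and a median of -0.52. Asns had 902 counts in WT and 445 in S89G-DMP1 and was 2.31-fold lower (2.06 to 2.59). Mthfd2 (533 and 279 counts) was 2.17-fold lower (1.88 to 2.52) and Psph (311 and 165 counts) 2.14-fold lower (1.77 to 2.61). All 3 were under 2-fold by library size alone. The first enzymes of serine synthesis went the other way: Phgdh had 1191 and 2349 counts and was 1.73-fold higher (1.62 to 1.86), and Psat1 had 683 and 1249 counts and was 1.61-fold higher (1.46 to 1.77). Cbs had 38 and 193 counts and was 4.46-fold higher (3.14 to 6.50), the only member called higher in astrocytes under TMM scaling. The other log2 ratios were -0.90 for Aldh18a1, -0.65 for Pycr1, -0.39 for Cth and -0.37 for Shmt2.

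Slc7a11 showed the largest difference of any member in astrocytes. It had 3714 counts in WT and 133 in S89G-DMP1, or 293 and 9.23 CPM, and was 31.8-fold lower (26.7 to 38.1). Its partner Slc3a2 was not lower, with 1994 and 3490 counts and a 1.54-fold higher level (1.46 to 1.63). Slc7a5, another light chain of that partner, had 754 and 1473 counts and was 1.72-fold higher (1.57 to 1.88). Slc1a5 had 606 and 114 counts and was 6.05-fold lower (4.94 to 7.45), and Slc7a1 had 1405 and 732 counts and was 2.18-fold lower (2.0 to 2.39), which was less than 2-fold by library size alone (log2 ratio -0.83). Slc6a9 (132 and 98 counts) had a log2 ratio of -0.60 and Slc38a2 (2011 and 2304 counts) 0.01. For Slc1a4 (808 and 783 counts) the sign depended on the scaling, at -0.23 with TMM and 0.06 by library size alone.

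All 11 synthetases were below 0 in astrocytes under both scalings, with a median of -0.56, and summed to 1740 CPM in the WT library against 1094 CPM in the other. Nars and Gars were called lower. Nars had 4193 and 2119 counts and was 2.25-fold lower (2.14 to 2.37), and Gars had 2436 and 1375 counts and was 2.02-fold lower (1.89 to 2.15), just past the threshold. Neither was 2-fold lower by library size alone. The log2 ratios of the others ran from -0.91 for Cars, -0.78 for Tars and -0.76 for Lars to -0.37 for Eprs and -0.34 for Wars, with Iars at -0.56, Sars at -0.50, Yars at -0.47 and Aars at -0.42. Thus the synthetases differed less among themselves than the regulators or transporters did.

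Set side by side, 26 members were above 0 in NSCs and below 0 in astrocytes. Of the 15 called higher in NSCs, 13 were below 0 in astrocytes under either scaling. No share over all genes was computed for these counts, and the list was chosen with both comparisons in view, so they repeat the selection. A stricter count took genes with every S89G-DMP1 NSC library above WT and a ratio below 0 in astrocytes under both scalings. It held 19 members, beside 389 of the 11008 genes in both comparisons. With TMM 7 of the 15 members called higher in NSCs were at least 2-fold lower in astrocytes (Atf4, Chac1, Asns, Mthfd2, Slc7a1, Slc1a5 and Gars). By library size alone Chac1 (-1.58) and Slc1a5 (-2.29) stayed past 2-fold. Phgdh and Slc7a5 were the 2 called higher in NSCs whose astrocyte ratio was above 0. Of the members with the largest astrocyte decreases, Slc7a11 was not called in NSCs, Nupr1 and Cebpb were not tested there, and Slc1a5 was called higher. The comparisons share no library, but the tables were made with different software and differ in depth and culture medium, and the difference between cell types was not tested.

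**Figure D3:**
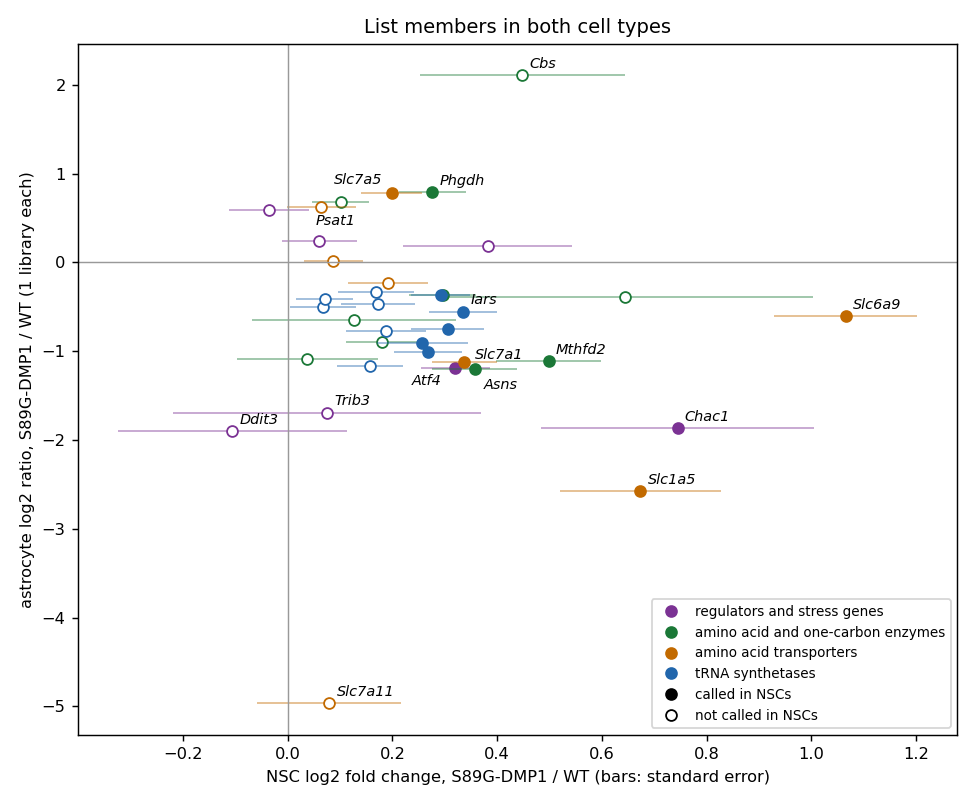
NSC log2 fold change with its standard error (horizontal axis) against the astrocyte log2 ratio (vertical axis) for the 36 members tested in NSCs, coloured by role and filled where called in NSCs. Most points lie in the lower right, where Slc6a9 is at 1.07 and -0.60 and Slc1a5 at 0.67 and -2.57.

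Levels of the members were compared between genes as CPM per kb of the gene length behind the deposited astrocyte FPKM and, for NSCs, as deposited TPM. The marker levels above are CPM without scaling by length. In WT NSCs Psat1 was the most abundant member at 357 ± 17.8 CPM per kb (SD, n = 3), followed by Slc7a5 at 245 ± 5.26, Phgdh at 220 ± 10.0, Aars at 183 ± 2.77 and Gars at 148 ± 9.12. These 5 were each separated from the next by more than their spread. Yars (125 ± 8.21), Atf4 (117 ± 7.45), Sars (117 ± 1.36) and Eprs (111 ± 1.53) came next, and Atf4 and Sars did not differ beyond their spread. At the low end were Cebpb (1.33 ± 0.69), Nupr1 (1.97 ± 0.62), Cth (3.55 ± 0.26), Chac1 (3.93 ± 1.25) and Trib3 (6.53 ± 2.16). Neighbours in that order lay within their combined spread except Nupr1 and Cth. The order in the WT astrocyte library was another one: Nupr1 led at 278 CPM per kb, ahead of Gars at 145, Nars at 126 and Atf4 at 119, while Psat1 was at 43.8 and Slc7a5 at 41.5. In the S89G-DMP1 astrocyte library Phgdh led at 180 CPM per kb, Nupr1 was at 22.1 and Slc7a11 at 2.57 (81.7 in WT). The order depended on the table: in the deposited TPM of the WT NSC libraries Phgdh led at 326 ± 17.4 TPM, followed by Atf4 at 306 ± 22.5, Slc7a5 at 263 ± 5.13 and Psat1 at 260 ± 24.6. These levels across tables are given side by side only, since each table was scaled on its own.

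**Figure D4:**
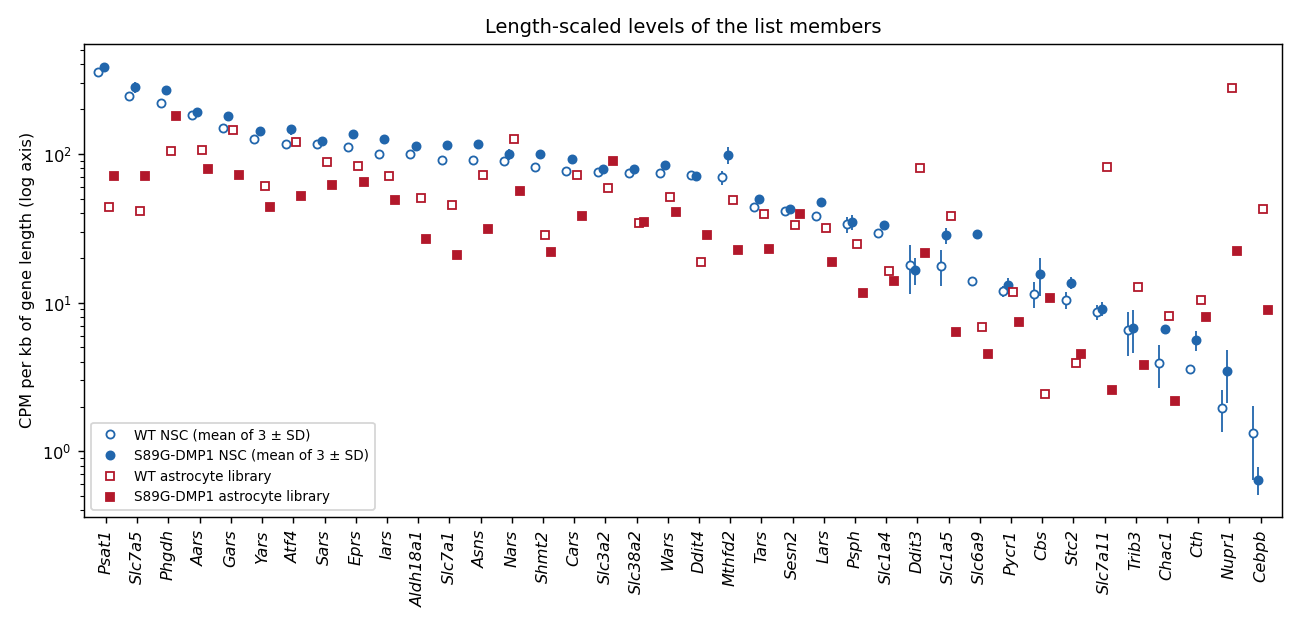
CPM per kb of gene length (log axis) of each member in WT and S89G-DMP1 NSCs (mean, with SD over 3 libraries) and in the 2 astrocyte libraries. On this scale Psat1, Slc7a5 and Phgdh are highest in NSCs (the deposited TPM order differs), whereas Nupr1 spans from 1.97 in WT NSCs to 278 in the WT astrocyte library.

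Beyond the members, 140 genes of the same pathways were read from 9 further lists. In NSCs 128 were tested, 77 were above 0, 19 were called higher and 10 lower, with a median log2 fold change of 0.04, where 7.08% of all genes were called higher and 8.76% lower. DESeq2 called 9 and 5. In astrocytes 136 were counted, 91 were below 0, 17 reached 2-fold upward and 19 downward (17.3% and 12.8% of all genes), with a median of -0.28. By library size alone 67 were below 0, the median was 0.01, and 20 reached 2-fold upward and 12 downward. These lists were also written with earlier results known. The adjusted p-values in the next paragraphs come from the edgeR quasi-likelihood test over all genes with Benjamini-Hochberg adjustment.

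The remaining cytosolic synthetases and their scaffold proteins had 5 of 12 called higher and 0 lower in NSCs (median 0.12). Vars1, for valine, rose by 0.30 ± 0.06 on the log2 scale (adjusted p = 0.00013), Mars1, for methionine, by 0.29 ± 0.07 (adjusted p = 0.0014) and Kars1, for lysine, by 0.21 ± 0.06 (adjusted p = 0.014). The scaffold subunit Eef1e1 rose by 0.32 ± 0.11 (adjusted p = 0.027). Aimp2, a further scaffold subunit, passed at an adjusted p of 0.047 (0.42 ± 0.15). With single libraries left out, Kars1 was called in 4 of 6 fits, Eef1e1 in 2 and Aimp2 in 0, and DESeq2 called Vars1 and Mars1 but not these 3. In astrocytes 10 of the 12 were below 0 (median -0.35; 8 and -0.06 by library size alone) and 0 passed 2-fold. The 17 mitochondrial synthetases, which serve the organelle's own translation, had 2 called higher and 0 lower in NSCs (0 by DESeq2), with a median of 0.08, among them Yars2, for tyrosine (0.49 ± 0.14, adjusted p = 0.011). In astrocytes 6 of these 17 were below 0, with a median of 0.14 (2 and 0.42 by library size alone), and Lars2 was at least 2-fold lower, with 5386 counts in WT and 330 in S89G-DMP1.

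Upstream of ATF4, the 9 kinases, phosphatases and factors that set eIF2α phosphorylation had 1 called higher and 2 lower in NSCs. Eif2s1, which encodes eIF2α itself, rose by 0.28 ± 0.08 (adjusted p = 0.0073). The kinase genes Eif2ak3 (PERK) and Eif2ak1 (HRI) fell, with log2 fold changes of -0.25 ± 0.09 (adjusted p = 0.047) and -0.28 ± 0.10 (adjusted p = 0.047). Each kinase gene was called in 1 of the 6 fits that left out a library and Eif2s1 in 4, and DESeq2 called none of the 9. Messenger RNA levels do not measure phosphorylation. Of 18 chaperones and sensors of the endoplasmic reticulum, 0 were called higher in NSCs and 2 fell, the sensor Atf6 (-0.57 ± 0.10) and the chaperone Hyou1 (-0.22 ± 0.07, adjusted p = 0.016), which was called in 3 of the 6 fits with a library left out and not by DESeq2. In astrocytes all 18 were below 0 (median -0.84) and 5 were at least 2-fold lower, the lowest being Ern1 (-1.87) and Dnajb9 (-1.23). By library size alone all 18 stayed below 0 (median -0.55) and Ern1 (-1.58) was the only one past 2-fold. Impact, an inhibitor of the kinase GCN2, was the only one of the eIF2α list past 2-fold in astrocytes, at -1.88.

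Among 17 further ATF4 targets, 13 were tested in NSCs, with 5 called higher and 2 lower and a median of 0.26. Cebpg, a dimer partner of ATF4, rose by 0.50 ± 0.11 (adjusted p = 0.00082), Xpot, which exports tRNAs from the nucleus, by 0.30 ± 0.06, Mthfd1l, a mitochondrial one-carbon enzyme, by 0.26 ± 0.07 (adjusted p = 0.0044) and Eif4ebp1, a repressor of translation initiation, by 0.41 ± 0.12 (adjusted p = 0.014). The fifth called higher was Jdp2, a transcription factor, at 0.53 ± 0.18 (adjusted p = 0.030). Jdp2 was called in 1 of the 6 fits that left out a library and Eif4ebp1 in 4, and DESeq2 called Cebpg and Xpot of these 5. Vldlr (-0.39 ± 0.08) and the autophagy receptor Sqstm1 (-0.25 ± 0.06, adjusted p = 0.0028) fell. In astrocytes 11 of 15 were below 0, 6 at least 2-fold lower and 2 higher. The extremes were Niban1 (-2.20) and Atf5 (-1.92) at the low end and Slc43a1 (2.06, on 10 and 54 counts) and Vldlr (1.10) at the high end.

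Further lists cover amino acid handling outside the members. Of 13 other serine, glycine and one-carbon genes, 2 were called higher in NSCs and 1 lower. Aldh1l1, which oxidises formyl-folate and is also an astrocyte marker, was at 299, 312 and 310 CPM in WT and 627, 630 and 631 CPM in S89G-DMP1 (1.03 ± 0.05), and Mthfd1 rose by 0.33 ± 0.07, while Amt of the glycine cleavage system fell (-0.50 ± 0.13, adjusted p = 0.0034; 4 of the 6 fits with a library left out, and not by DESeq2). In astrocytes 5 of the 13 reached 2-fold upward, led by Aldh1l1 (5.01) and Gldc (2.53). Of 18 other amino acid enzymes, 15 were tested in NSCs and Bcat1, a branched-chain aminotransferase, was the only one called (0.38 ± 0.10, adjusted p = 0.0024; not by DESeq2). In astrocytes 16 of 17 were below 0 and 3 at least 2-fold lower, with Bcat1 (-2.99) and the glutathione synthetase Gss (-1.06) lowest. By library size alone 10 were below 0 and Bcat1 alone was past 2-fold downward.

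Of 18 other amino acid transporters, 15 were tested in NSCs, and 3 were called higher and 1 lower. The GABA transporter Slc6a11 was at 99.5, 99.1 and 105 CPM in WT and 180, 196 and 185 CPM in S89G-DMP1 (0.89 ± 0.07). The glutamate transporter Slc1a3 rose by 0.20 ± 0.05 on the log2 scale (adjusted p = 0.0011), while the taurine transporter Slc6a6 fell (-0.46 ± 0.07). In astrocytes 7 reached 2-fold upward and 2 downward. Slc1a3 had 8 counts in WT and 3877 in S89G-DMP1 (log2 ratio 8.43), and Slc38a3, for glutamine, 9 and 938 (6.25), and the lowest ratios were those of Slc7a2 (-1.88) and Slc7a7 (-1.34). Of 18 genes of amino acid sensing by mTORC1, 16 were tested in NSCs and 2 fell, Sesn3 (-0.41 ± 0.06) and Mtor (-0.23 ± 0.07, adjusted p = 0.021), the latter in 3 of the 6 fits with a library left out and not by DESeq2. In astrocytes 3 of them reached 2-fold upward, with Deptor (2.27) and Rragb (1.99) highest, and Castor1, an arginine sensor, was at -1.90.

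**Figure D5:**
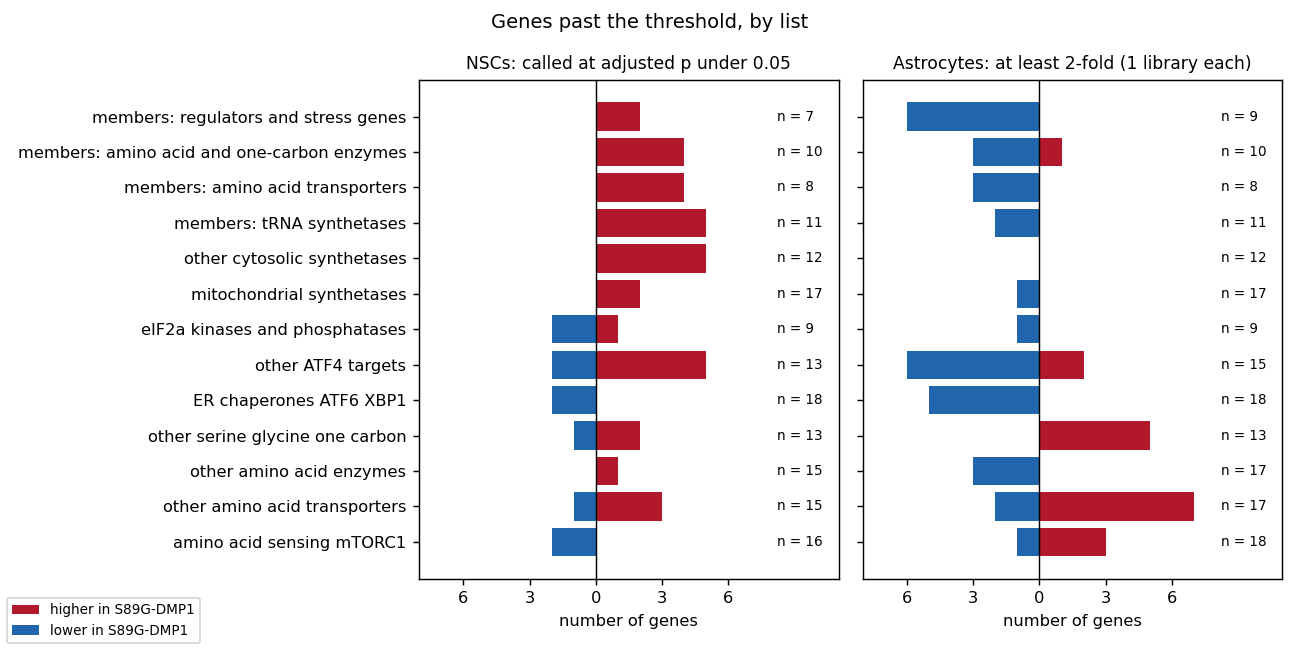
Number of genes called higher (red, to the right) and lower (blue, to the left) in S89G-DMP1, by list, for NSCs (adjusted p under 0.05) and for astrocytes (at least 2-fold, 1 library each), with the number of genes tested or counted beside each bar. Every member group has calls only to the right in NSCs, from 2 to 5 genes, while in astrocytes the regulators reach 6 to the left.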

How the data were processed

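The authors deposited raw read counts per Ensembl gene for both cell types, FPKM values for the astrocytes and TPM values for the NSCs. Per the methods, reads with adapter or poly-N stretches or of low quality were removed and the rest aligned by TopHat 2.0.9 on Bowtie 2.0.6, which the submitters' processing notes give for the astrocytes. For the NSCs the notes name HISAT2, StringTie, featureCounts and build GRCm38. The astrocyte build, its counting program and the use of strand are not given in the sources used here.

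Counts were analysed in R 4.3.3 with edgeR 4.0.16 (filterByExpr, TMM, quasi-likelihood test on genotype alone, Benjamini-Hochberg threshold 0.05), with DESeq2 1.42.0 and limma 3.58.1 as alternatives. Astrocyte log2 ratios were taken after TMM scaling, with 2 as prior count, for genes that reached 10 counts in at least 1 library, with 95% exact counting intervals. Symbols matched 47224 of 47729 NSC and 39973 of 40562 astrocyte identifiers. The main edgeR fit and the astrocyte log2 ratio were run on simulated data, and the alternative fits were not. Libraries of the same genotype differed beyond counting error (chi-square per gene 1.07 to 1.51), so none was counted as a duplicate. Between genotypes the values were 3.17 to 4.06. They cannot tell separate mice or cultures from repeats of the same culture. The intervals cover counting error only, because each astrocyte genotype is 1 library. PCR duplicates were not marked, and their effect on the intervals was not tested.

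The members, the lists and the markers were chosen with earlier results of these data known. The text names all members, and of each other list the genes called in NSCs (at most 4 in each direction, by adjusted p) and the 2 highest and 2 lowest ratios past 2-fold in astrocytes. The fifth gene called higher in a list, Xist and Ddx3y were added after their values were seen. Some genes that met this rule are not reported here. Alternatives covered the test, scaling, filters, units, pseudocounts, thresholds, a replicate block and leaving out each NSC library.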

Additional observations from a re-analysis of the deposited data

Results flagged for a closer look

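For 19 members every S89G-DMP1 NSC library lay above every WT NSC library while the S89G-DMP1 astrocyte library lay below the WT one under both scalings. Of the 11008 genes in both comparisons, 389 did so. The difference between cell types was not tested, because each astrocyte genotype is 1 library. The astrocyte log2 ratios of these members were -1.19 for Atf4 and -1.86 for Chac1 among the regulators. They were -1.20 for Asns, -0.37 for Shmt2, -1.11 for Mthfd2, -0.90 for Aldh18a1 and -0.39 for Cth among the enzymes. Among the transporters they were -1.12 for Slc7a1, -2.57 for Slc1a5 and -0.60 for Slc6a9. Among the synthetases they were -1.01 for Gars, -0.50 for Sars, -0.34 for Wars, -0.37 for Eprs, -0.56 for Iars, -0.76 for Lars, -0.78 for Tars, -0.91 for Cars and -0.42 for Aars. The WT astrocyte library was low in astrocyte markers (160 CPM summed over 9 genes), and the part of that in these ratios was not tested.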

How the results depend on the processing

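In NSCs, 15 members were called higher with a replicate block as without it, and 19 higher and 10 lower among the other pathway genes. The deviations of libraries with the same number correlated at 0.028, -0.0099 and -0.017, so the numbers do not pair them. The block called 829 of all genes higher and 1016 lower, against 792 and 981. DESeq2 called 9 other pathway genes higher and 5 lower, and 313 and 422 of all genes. With limma on the deposited TPM, 1 member (Slc6a9) was called higher at either pseudocount (0.1 or 1), 2 other pathway genes were called higher and 0 lower, and of all genes 32 were higher and 71 (0.1) or 70 (1) lower. The signs of 5 members turned on TPM with a pseudocount of 0.1, to -0.020 (Sesn2), -0.53 (Stc2), -0.51 (Pycr1), -0.19 (Slc7a5) and -0.090 (Slc7a11), and with 1 to -0.020, -0.45, -0.49, -0.19 and -0.083. The causes were not tested. Leaving out each library gave 12 to 15 members called higher and 0 lower, a members' median of 0.19 to 0.24, 12 to 19 other pathway genes higher and 6 to 11 lower, and 571 to 733 higher and 770 to 926 lower over all genes. It turned the sign of Ddit3 (-0.39 to 0.094), Trib3 (-0.20 to 0.27), Psph (-0.042 to 0.13) and Slc7a11 (-0.0016 to 0.17).

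In astrocytes, library size alone gave 3 members at least 2-fold higher, 7 lower and a median of -0.34. The deposited FPKM gave 3 and 7 at either pseudocount, with medians of -0.30 (pseudocount 1, with 1020 of all genes lower) and -0.34 (0.1). Requiring 10 counts in both libraries left 1591 of all genes higher. A 1.5-fold threshold gave 6 members higher and 3327 of all genes lower, and a 4-fold threshold gave 4 members lower and 1354 of all genes higher and 813 lower. Only counts that moved more than 1.5-fold from the main setting are given here, so they are not matched by direction. The main setting had 14 members and 2010 of all genes lower, and 1 member and 2713 of all genes higher.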

Other observations

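The deposited TPM values, for which the sources used here do not say how they were made, gave a larger difference for Slc6a9 than the counts did, with 16.9, 18 and 15.0 TPM in the WT and 54.3, 51.2 and 57.4 TPM in the S89G-DMP1 NSC libraries, a ratio of means of 3.26. For Slc7a5 they gave 265, 257 and 266 TPM in WT and 157, 303 and 256 TPM in S89G-DMP1, a ratio of 0.909, with S89G-DMP1 library 1 as the lowest of the 6 although it had 425 CPM by counts.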
